A study of Mus musculus with 2 samples.

Results

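Toll-like receptors and the proteins closest to them in the signalling pathway were compared between splenic CD4+ T cells of 2 mouse strains immunised against the enzyme glucose-6-phosphate isomerase (GPI): DBA/1, which is susceptible to the arthritis this induces, and C57BL/6, which is resistant. The group was fixed by gene name, as 10 genes: the receptors Tlr1, Tlr2, Tlr4, Tlr6 and Tlr7, the co-receptors Cd14 and Ly96, the adaptor Myd88, the kinase Irak4 and the ubiquitin ligase Traf6. Of these, 9 had at least 1 probe set under their own symbol in the platform's gene table, out of 12393 genes with one, and together they held 14 probe sets. No probe set carried the symbol Irak4, which was not analysed here. Both groups of mice had been immunised with GPI and were sampled on day 7; the labels name no transgene, deletion or further treatment, and no unimmunised sample was analysed here. The series' design text names magnetic sorting as the way the cells were obtained. From each strain 3 µg of total RNA was labelled and hybridised to 1 oligonucleotide array per strain, so there is no replicate error and no test for any gene. The number of mice behind each array, their age and their sex were not given in the labels.

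Toll-like receptors recognise conserved microbial structures. Tlr2 acts at the cell surface as a heterodimer with Tlr1 or Tlr6 and binds bacterial lipopeptides, Tlr4 binds lipopolysaccharide with the help of Cd14 and Ly96 (MD-2), and Tlr7 binds single-stranded RNA inside endosomes. All of them signal through the adaptor Myd88, which recruits kinases of the Irak family and then Traf6, and the chain ends in NF-kappaB, MAP kinase and interferon regulatory factor activation. Most of these receptors are known from macrophages, dendritic cells, neutrophils and B cells, while T cells express some of them at lower levels.

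Expression was read as the MAS5 signal, a linear intensity per probe set. The median of all signals on an array (37.6 in DBA/1, 38.04 in C57BL/6) was taken as a floor: lower signals were set to it before the log2 ratio of DBA/1 over C57BL/6 was taken. A fold with 1 signal under the floor is therefore written as "at least". Of the 14 probe sets, 8 had a signal above the floor on at least 1 array, and they covered 7 genes: Tlr1, Tlr2, Tlr6, Tlr7, Cd14, Myd88 and Traf6. The other 6 probe sets, which included both of Tlr4 and the only one of Ly96, lay under the floor on both arrays and received no fold. A repeat measurement exists only where a gene has a second probe set. For 2325 genes that have 2 probe sets with usable signals in both strains, the paired log2 ratios differed with an SD of 0.43, an error of 0.31 for a single probe set, and of 0.32 over 736 pairs in which both signals lay under the 75th percentile of their arrays. This error leaves out variation between mice, sorts and labelling reactions.

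The genes of Tlr1 and Tlr6 are direct neighbours in the gene order of the RefSeq table and their probe sets differed in opposite directions, Tlr2 had the largest ratio in favour of DBA/1, and Myd88 is the adaptor that all of these receptors share, so the promoters of these 4 genes are shown. The sequences are RefSeq windows of assembly GRCm38.p6, a C57BL/6J genome, from 250 bases before to 50 bases after an annotated start, all on the minus strand and printed 5′ to 3′: chr5:64933509-64933808 for Tlr1, chr5:64959999-64960298 for Tlr6, chr3:83841559-83841858 for Tlr2 and chr9:119339969-119340268 for Myd88. Capitals mark matches, on either strand, to the PU.1 core GAGGAA, an interferon response element core AAANNGAAA, the STAT element TTCNNNGAA, the TATA box TATAAA and the NF-kappaB consensus.
Tlr1: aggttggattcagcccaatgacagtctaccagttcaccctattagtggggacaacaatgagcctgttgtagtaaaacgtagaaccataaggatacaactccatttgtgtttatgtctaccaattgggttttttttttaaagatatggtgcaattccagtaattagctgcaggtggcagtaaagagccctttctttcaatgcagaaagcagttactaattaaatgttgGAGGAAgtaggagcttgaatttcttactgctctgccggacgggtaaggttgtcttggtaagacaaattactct
Tlr6: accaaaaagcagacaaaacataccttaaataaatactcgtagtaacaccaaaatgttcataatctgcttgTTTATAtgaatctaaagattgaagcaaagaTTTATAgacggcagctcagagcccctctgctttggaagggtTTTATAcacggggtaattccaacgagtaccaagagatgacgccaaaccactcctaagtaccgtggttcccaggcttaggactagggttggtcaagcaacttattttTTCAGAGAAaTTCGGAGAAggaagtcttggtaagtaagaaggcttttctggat
Tlr2: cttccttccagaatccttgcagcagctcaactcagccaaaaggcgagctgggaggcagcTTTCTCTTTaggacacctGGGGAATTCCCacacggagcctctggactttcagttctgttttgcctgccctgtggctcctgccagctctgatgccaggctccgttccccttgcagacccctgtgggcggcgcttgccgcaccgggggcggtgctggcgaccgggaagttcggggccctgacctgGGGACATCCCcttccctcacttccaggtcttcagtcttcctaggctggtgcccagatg
Myd88: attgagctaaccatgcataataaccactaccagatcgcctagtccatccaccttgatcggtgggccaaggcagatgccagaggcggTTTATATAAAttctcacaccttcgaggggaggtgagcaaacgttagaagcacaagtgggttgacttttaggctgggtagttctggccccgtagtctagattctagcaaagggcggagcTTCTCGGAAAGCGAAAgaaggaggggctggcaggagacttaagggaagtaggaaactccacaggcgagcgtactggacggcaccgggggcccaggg

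The Tlr1 window held 1 match, a PU.1 core that begins at position -23 from the start, and 28.3% of all 32851 promoter windows of the table hold that core. The Tlr6 window held 2 STAT elements, found in 8.30% of windows, and 3 TATA letters on the opposite strand, found in 13.6%. The Tlr2 window matched the NF-kappaB consensus at 3 positions, of which those at -173 and -172 overlap and the third begins at -8, and 8.46% of windows have such a match. It also held 1 interferon response core on the opposite strand, at -191, which 10.6% of windows hold. In the Myd88 window a STAT element at -46 overlaps an interferon response core at -39, and TATA letters at -164 and -160 overlap each other on opposite strands. The RefSeq table has a second start for Tlr1, whose window held a STAT element, and a second one for Tlr6, whose window held 3 overlapping interferon response cores; neither is printed. Promoter windows were listed for 6 of the 10 members (8 windows in all). These matches are descriptions of letters in the reference strain; no DBA/1 sequence was used.

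Among the receptors of the Tlr2 group, Tlr1 was lower in DBA/1 and its partner Tlr2 and paralogue Tlr6 were higher. Tlr1 (probe set 1449049_at) read 86.9 in DBA/1 and 373 in C57BL/6. The signal was thus above the floor in both strains, at percentile 62.7 of the DBA/1 array and percentile 88.2 of the C57BL/6 array, and 4.29-fold higher in C57BL/6 (log2 ratio -2.10). Of 10889 probe sets with a signal above the floor on at least 1 array, 35 (0.321%), Tlr1 included, were at least as far lower in DBA/1. Tlr1 has only this probe set on the array, so its difference has no second measurement. Whether a strain variant under its probes contributed was not tested.

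Tlr2 (1419132_at) read 95.2 in DBA/1 and 40.4 in C57BL/6, which is 2.35-fold apart in the other direction (log2 ratio 1.24). The C57BL/6 signal was close to the floor, at percentile 50.8 of its array, and both signals were under the 75th percentile, which was 171 for DBA/1 and 162 for C57BL/6. The size of the Tlr2 difference therefore depended on how dim signals were handled: it was 0.40 with the floor at percentile 60 and 0.81 on the log2(signal + 32) scale, and in both cases was no longer 2-fold. Tlr6 (1421352_at), the second partner of Tlr2, read 71.1 in DBA/1 and 29.2 in C57BL/6, where it was under the floor, and was at least 1.87-fold higher in DBA/1 (log2 ratio at least 0.90). Tlr1 and Tlr6 were thus displaced in opposite directions.

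**Figure D1:**
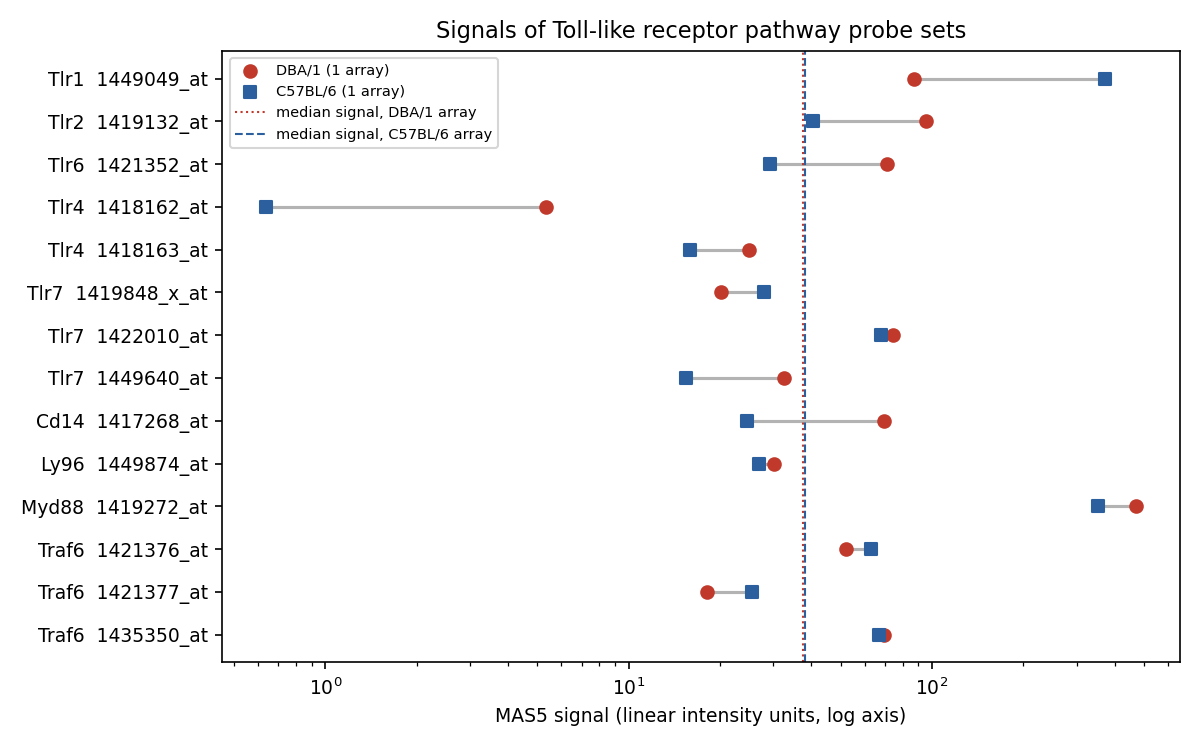
MAS5 signal on a log axis of each of the 14 probe sets of the 9 measured genes, with a red circle for the DBA/1 array and a blue square for the C57BL/6 array; dotted and dashed lines give the median signal of each array, used as the floor. Tlr1 is the pair with the C57BL/6 square far to the right (373 against 86.9), Tlr2, Tlr6 and Cd14 have the DBA/1 circle to the right, and 6 probe sets lie left of the floor on both arrays.

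Of the nearest protein-coding genes around Tlr1, only Klf3 had signals above the floor in both strains, without a difference like that of Tlr1. In the order of the RefSeq table the 3 on one side are Klf3, Gm38457 and Gm46913 and the 3 on the other Tlr6, Fam114a1 and Tmem156; 3 of these 6 had a probe set. Klf3, a Krüppel-like transcription factor, had 3 probe sets with log2 ratios of 0.15, 0.33 and -0.28. Both probe sets of Fam114a1 lay under the floor in both strains, at 22.0 and 7.79 and at 9.59 and 4.17 in DBA/1 and C57BL/6.

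The lipopolysaccharide receptor was at the limit of what the arrays measured. For Tlr4, 1418163_at read 24.98 in DBA/1 and 15.96 in C57BL/6, and 1418162_at read 5.32 and 0.636. Ly96, the protein that holds lipopolysaccharide on Tlr4, read 30.03 and 26.96. All of these signals were under the floor, so no difference between strains was measurable for either gene. Cd14 (1417268_at), which hands lipopolysaccharide to Ly96 and also assists Tlr2, read 69.2 in DBA/1 and 24.5 in C57BL/6. It was above the floor only in DBA/1 and at least 1.82-fold higher there (log2 ratio at least 0.86).

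The endosomal receptor Tlr7 had 3 probe sets, of which 1 was above the floor. That probe set, 1422010_at, read 74.4 in DBA/1 and 67.99 in C57BL/6, a log2 ratio of 0.13 that is smaller than the error of a single probe set. The remaining pair went opposite ways, 32.5 against 15.5 for 1449640_at and 20.2 against 28.01 for 1419848_x_at, whose suffix marks possible cross-hybridisation, and all 4 of these signals were under the floor.

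The shared signalling proteins differed less than Tlr1 or Tlr2. Myd88 (1419272_at) read 472 in DBA/1 and 354 in C57BL/6, both in the upper part of the arrays (percentiles 90.0 and 87.6), a 1.33-fold difference with a log2 ratio of 0.41. This is over the error of 0.31 for a single probe set but under the SD of 0.43 between probe sets of a gene, and the ratio was 0.29 after lowess and 0.30 after quantile normalization. Traf6, the ubiquitin ligase downstream of the Irak kinases, had 3 probe sets. On 1421376_at it read 52.03 and 63.1 (log2 ratio -0.28), on 1435350_at 69.4 and 67.1 (0.047, or -0.038 after median centring), and on 1421377_at 18.1 and 25.5, both under the floor. The usable pair differed by 0.33, less than the SD between probe sets of a gene, so no direction was measurable for Traf6.

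Of the 8 usable member probe sets, 1 (Tlr2) was at least 2-fold higher in DBA/1 and 1 (Tlr1) at least 2-fold higher in C57BL/6. Among all 10889 probe sets above the floor on at least 1 array, 3.20% passed 2-fold in favour of DBA/1 and 2.23% in favour of C57BL/6, and after median centring these shares were 2.40% and 2.82%. Single probe sets out of 8 cannot be read against such shares. The shares were similar for bright and dim probe sets. Where the higher signal reached the 75th percentile, as for Tlr1 and Myd88, the shares were 3.68% and 2.47% of 5551 probe sets. Where it did not, as for the other 6 member probe sets, they were 2.70% and 1.99% of 5338. The median log2 ratio of the 8 usable member probe sets was 0.27, with a range from -2.10 to 1.24, beside a median of 0.073 over all probe sets used.

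**Figure D2:**
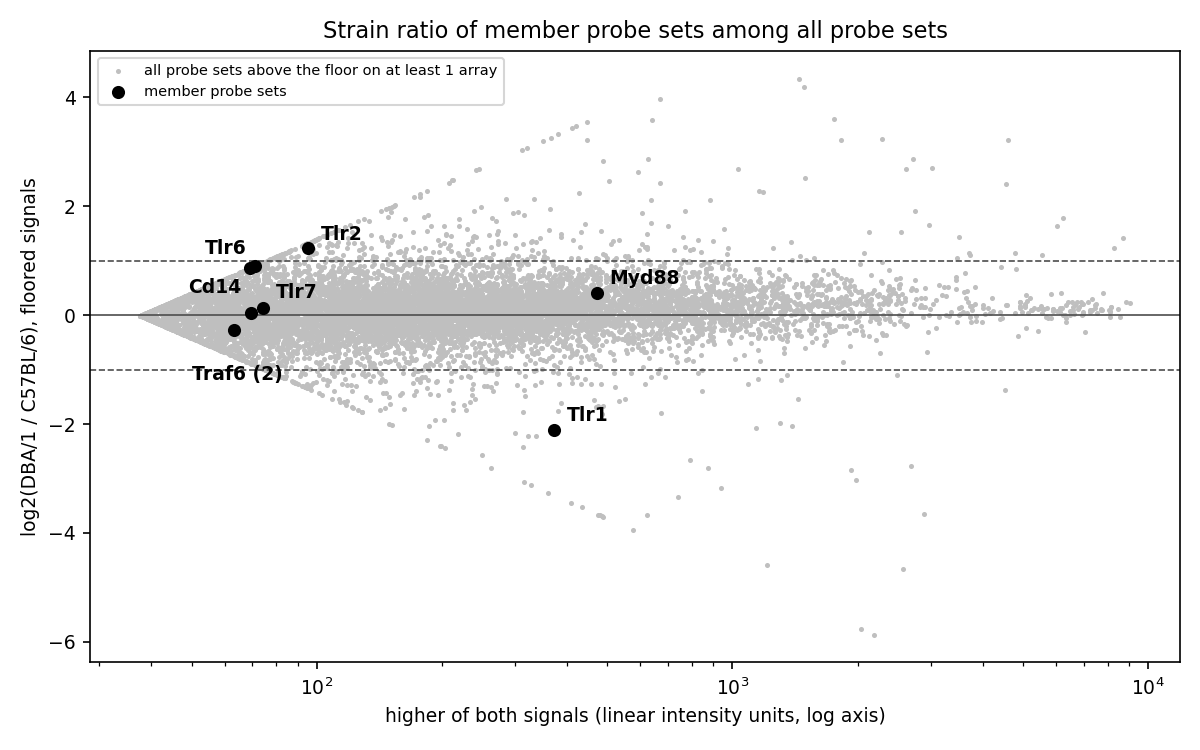
Log2 ratio of DBA/1 over C57BL/6 (floored signals) against the higher of both signals on a log axis; grey points are all probe sets above the floor on at least 1 array, black points the 8 usable member probe sets, and dashed lines mark 2-fold. Tlr1 (-2.10) lies outside the dense band among probe sets of similar signal, Myd88 (0.41) lies within it, and Tlr6 and Cd14 lie on the slanted edge where the C57BL/6 signal is set to the floor.

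Some markers of other spleen cells had signals above the floor on both arrays, and those of several cell types that carry Toll-like receptors were higher in DBA/1 beside Tlr2, Tlr6 and Cd14. Of all 6936 genes with a signal above the floor on at least 1 array, 3.84% were at least 2-fold higher in DBA/1. In C57BL/6 the share was 1.90%, and the median log2 ratio of these genes was 0.10. T cell markers were bright, and none of the 9 usable of 10 listed was 2-fold apart. Cd3d read 3538 in DBA/1 and 3499 in C57BL/6, Cd3g 1798 and 1853 and Cd4 913 and 857. Of the 9, 3 had the higher signal in DBA/1 and 6 in C57BL/6, with a median log2 ratio of -0.069. Furthest apart were Zap70 (389 and 619, log2 ratio -0.67), Thy1 (1143 and 1664, -0.54) and Trat1 (441 and 338, 0.38). These 3 ratios exceed the error of a single probe set. All 11 usable neutrophil markers of 13 listed were higher in DBA/1, with 10 beyond 2-fold, and the summed signal of the 12 with a probe set was 34732 in DBA/1 and 10699 in C57BL/6; the brightest, S100a8 and S100a9, read 8272 and 3513, and 8708 and 3270. Of the 12 usable monocyte and macrophage markers of 14 listed, 11 were higher in DBA/1 and 4 at least 2-fold (Itgam as a bound), with a median of 0.80; the 13 with a probe set had summed signals of 6889 and 3197. The brightest were Lyz2 (2974 and 948) and Csf1r (1156 and 672), and Fcgr1 lay under the floor on both arrays.

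Dendritic cell markers had a median of 1.00 (7 usable of 10, 6 higher in DBA/1 and 4 at least 2-fold). The summed signals of the 8 with a probe set were 4526 and 2109. Cst3 (2546 and 877) and Itgax (901 and 449) led in brightness. Bst2 went the other way at 235 and 394 (log2 ratio -0.74), and Xcr1 was under the floor in both strains. For these lists too, the 2-fold shares of all 6936 genes above the floor were 3.84% for DBA/1 and 1.90% for C57BL/6. All 7 usable B cell markers of 11 listed were at least 2-fold higher in DBA/1, with a median of 1.12, but 2 of them, Blk and Fcer2a, were usable only through their DBA/1 signal and are bounds. The brightest were Cd22 (511 and 207) and Ms4a1 (328 and 154), and the summed signals of the 9 with a probe set were 1615 and 706; Pax5 and Ebf1 were under the floor on both arrays. Beside Tlr1, which was lower in DBA/1, CD8 T cell markers were lower too. All 6 had lower signals in DBA/1, 3 at least 2-fold (Cd8b1 as a bound), with a median of -1.01 and summed signals of 383 and 1050. Ctsw (207 and 407) and Nkg7 (53.2 and 202) were the brightest. Cd8a read 52.9 and 78.03 (log2 ratio -0.56). Gzmk (1.08 and 55.1), among the 6, was usable only through its C57BL/6 signal and is a bound. NK cell markers had a median of -0.80 over 4 usable of 7 listed, with 2 at least 2-fold lower in DBA/1. The summed signals of the 6 with a probe set were 2769 and 2354. Tyrobp, which made up most of both sums, read 2381 and 1343 and was the only usable one higher in DBA/1. Klrd1 read 145 and 470 (log2 ratio -1.69), and Il2rb read 201 and 483. Eomes (23.2 and 47.6) was usable only through its C57BL/6 signal and is a bound, and Ncr1 had no signal over the floor in either strain. The part of these cells in the differences of Tlr1, Tlr2, Tlr6 and Cd14 was not tested, and in bulk RNA a difference in the number of cells of a type cannot be told apart from a difference in RNA per cell.

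The rest of the pathway was covered by 7 lists with 98 genes, of which 82 had a probe set and 61 a signal above the floor on at least 1 array. The 16 genes without a probe set under their own symbol were not analysed here. With 1 probe set per gene, 6 of the 61 (9.84%) passed 2-fold in favour of DBA/1 and 2 (3.28%) in favour of C57BL/6. The same shares of all 6936 genes above the floor were 3.84% and 1.90%. The median log2 ratio of the 61 was 0.11 beside 0.10 for all. Cebpd is among the 6 as a bound, usable only through its DBA/1 signal. The lists were chosen with earlier results of these data known, so their shares are a description and cannot be read as an enrichment.

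Of 7 other Toll-like receptors, 4 had a probe set and all 4 were under the floor on both arrays. Tlr3, which binds double-stranded RNA, read 20.6 in DBA/1 and 9.94 in C57BL/6, Tlr5, the flagellin receptor, 22.1 and 16.7, Tlr8 9.63 and 10.8, and Tlr9, which binds unmethylated DNA, 14.6 and 8.14. Differences between strains in these receptors were not measurable.

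Co-receptors and receptor trafficking genes included several that were higher in DBA/1. Of 9 usable genes, 7 were higher there, 3 beyond 2-fold, and none was at least 2-fold lower. Of all 6936 genes above the floor, 3.84% and 1.90% passed 2-fold in these directions, and their median log2 ratio was 0.10. Lbp (49.8 and 30.9), among the 7, was usable only through its DBA/1 signal and is a bound. The list's median log2 ratio was 0.82 and ranged from 0.59 to 0.82 over the scaling and floor settings. Lgmn (legumain), an endosomal protease that processes nucleic acid-sensing Toll-like receptors, read 273 and 106 (2.57-fold). Slc15a3, a histidine and peptide transporter of endosomes, read 123 and 49.02 (2.51-fold), and Cd36, a scavenger receptor that assists the Tlr2 and Tlr6 pair, 105 and 50.7 (2.07-fold), while 2 dimmer probe sets of Cd36 were under the floor. Ly86 (MD-1), a homologue of Ly96, read 942 and 514 (1.83-fold), and its partner Cd180, a receptor of B cells, lay under the floor at 33.2 and 36.03. Among chaperones of Toll-like receptor folding and transport, Cnpy3 read 113 and 63.8 (log2 ratio 0.82), Hsp90b1 788 and 882 (-0.16) and Unc93b1, which escorts Tlr7 and Tlr9 to endosomes, 221 and 240 (-0.12); the ratios of Hsp90b1 and Unc93b1 are smaller than the error of a single probe set. These genes lay beside monocyte, dendritic cell and B cell marker medians of 0.80, 1.00 and 1.12, and the part of those cells was not tested.

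Among adaptors and kinases no gene with both signals above the floor was 2-fold apart. Tirap, which bridges Tlr2 and Tlr4 to Myd88, read 44.1 in DBA/1 and 26.3, under the floor, in C57BL/6. A dimmer probe set of Tirap was under the floor in both strains, as was Pik3ap1 (27.5 and 19.2). Over 15 usable genes of the kinase and ubiquitin list the median log2 ratio was -0.072, with 7 higher in DBA/1 and 8 higher in C57BL/6, and a range from -0.57 to 0.55. Irak1, a kinase recruited by Myd88, read 314 and 352 (-0.17). Tbk1, which phosphorylates Irf3, read 313 and 464 (-0.57, with a second probe set at -0.55). Tab3, a partner of the kinase Map3k7, read 160 and 109 (0.55), Map3k8 83.9 and 58.7 (0.51), and Tnip2 55.7 in DBA/1 and 37.4, under the floor, in C57BL/6 (at least 0.55). The kinase list's other 2 genes with a probe set, Tab1 and Peli2, were under the floor in both strains.

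The transcription factors and negative regulators had medians near 0, and the sign of the transcription factor median (0.029 over 14 genes) turned to -0.056, -0.13 and -0.10 after median centring, quantile normalization and lowess. The factors furthest apart were Cebpd, a C/EBP factor of myeloid cells, at 110 and 32.6 (at least 2.89-fold higher in DBA/1), Atf3, a stress-induced repressor, at 176 and 86.01 (2.05-fold), Irf7, the interferon regulatory factor downstream of Tlr7 and Tlr9, at 131 and 264 (2.02-fold higher in C57BL/6), and Irf5 at 139 and 86.7 (log2 ratio 0.68). Cebpd and Irf5 each had a dimmer probe set under the floor on both arrays, at 13.6 and 1.49 and at 9.47 and 11.03. After the same scalings the kinase median was -0.16, -0.21 and -0.22, and it turned to 0.070 with the floor at percentile 25, which let in all 17 genes with a probe set. None of 11 usable negative regulators was 2-fold apart, and their median was 0.16. Cd300lf, an inhibitory receptor of myeloid cells, read 206 and 131 (0.65), Socs3, an inhibitor of cytokine signalling, 776 and 562 (0.47, with further probe sets at 0.33 and 0.61), Tnfaip3 (A20), a brake on NF-kappaB, 546 and 706 (-0.37), and the deubiquitinase Usp4 282 and 228 (0.31). Sigirr, an inhibitory relative of the receptors, read 276 on both arrays.

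Of 24 genes that Toll-like receptor signals are known to induce, 11 were usable and 13, including Il6, Il12b and Ifnb1, were under the floor in both strains. The median log2 ratio of the usable genes was 0.56, beside 0.10 for all 6936 genes above the floor. Of the 11 usable, 8 were higher and 3 lower in DBA/1, 1 of them at least 2-fold in each direction. The 2-fold shares of all 6936 genes were 3.84% in favour of DBA/1 and 1.90% in favour of C57BL/6. Single genes out of 11 cannot be read against such shares. Among the 3 lower, Cxcl10 (33.7 and 54.6) was above the floor only in C57BL/6 and is a bound. Il1b, the cytokine interleukin 1 beta, read 700 in DBA/1 and 224 in C57BL/6 (3.13-fold). Ccl5, a chemokine that T and NK cells also make, read 256 and 616 and was 2.41-fold higher in C57BL/6. The chemokine Ccl3 read 115 and 58.4 (1.97-fold) and the co-stimulatory ligand Cd86 144 and 76.1 (1.89-fold, its other probe set lying at a log2 ratio of 1.21). Tnf read 109 and 60.9 (0.84). Neutrophil and monocyte markers (medians 1.79 and 0.80) and CD8 T cell markers (-1.01) differed in the same directions as Il1b and Ccl5 respectively, and their part was not tested.

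**Figure D3:**
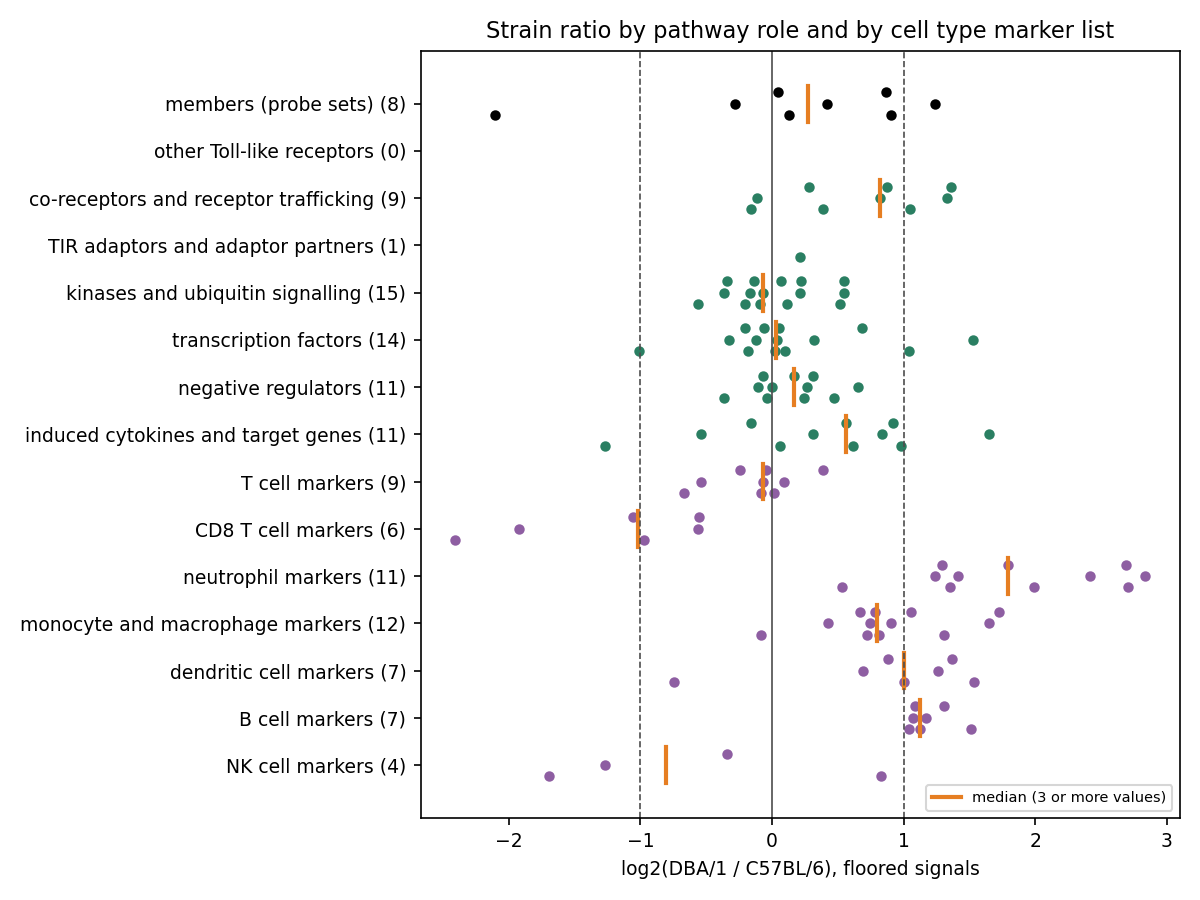
Log2 ratio of DBA/1 over C57BL/6 (floored signals) for the 8 usable member probe sets (black), for genes of 7 pathway lists (green) and for markers of 7 cell types (purple), 1 point per probe set or gene above the floor on at least 1 array, with the number in brackets and an orange bar at the median. The kinase, transcription factor and negative regulator lists have medians from -0.072 to 0.16, with single transcription factors from -1.01 to 1.53. The neutrophil, monocyte, dendritic cell and B cell lists have medians from 0.80 to 1.79.

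The direction of the member ratios was kept in the settings that gave a ratio, apart from 1 probe set of Traf6. Their size depended on the treatment of dim signals. With the floor at percentile 60, Tlr6, Cd14 and both usable Traf6 probe sets lay under it in both strains and had no ratio. The log2 ratio of Tlr1 ranged from -2.19 to -1.77 over the 7 scaling and floor alternatives. That of Myd88 ranged from 0.29 to 0.41. Over the 6 alternatives that gave them a ratio, Tlr6 ranged from 0.75 to 1.28 and Cd14 from 0.78 to 1.499. Tlr6 and Cd14 passed 2-fold only when no floor was set or when it was lowered to percentile 25, settings that use their C57BL/6 signals of 29.2 and 24.5 as measured.

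**Figure D4:**
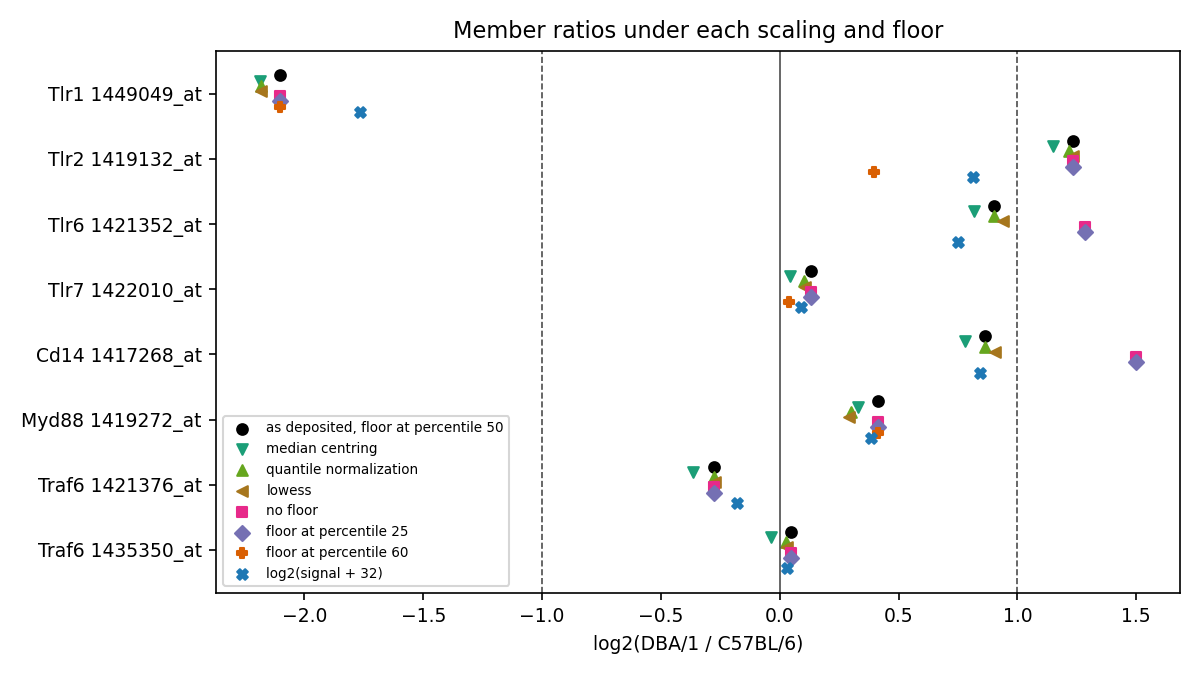
Log2 ratio of DBA/1 over C57BL/6 of the 8 usable member probe sets as reported (black circle) and under 7 other scalings and floors, with dashed lines at 2-fold; a setting in which both signals fall under the floor has no symbol. Tlr1 stays left of -1 in every setting shown, whereas Tlr2 falls to 0.40 with the floor at percentile 60.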

How the data were processed

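The deposited table holds 1 linear intensity per probe set for each of 2 arrays, summarised with MAS5 per the submitters' processing notes, with no version or scaling target named there; it has no detection calls. The values were used as deposited. Of 22626 probe sets other than 64 controls, 20380 had exactly 1 gene symbol in the platform's gene table and 691 several; Entrez identifiers of 20351 matched the RefSeq table of GRCm38.p6, which was used for current symbols and gene order. No probe set with several symbols named a member.

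Signals under each array's median were set to it, and log2 ratios of DBA/1 over C57BL/6 were computed in Python 3.11.15 (numpy 2.4.6, pandas 2.3.3, statsmodels 0.14.6 for lowess, span 0.3). With 1 array per strain, differences are described by size, at 2-fold, and the number of arrays limits the precision. Every member probe set is named; in pathway lists, the 4 genes with the largest absolute ratio, in marker lists the 2 brightest, with 1 probe set per gene (the highest mean log2 signal), and the 3 neighbours of Tlr1 on each side. Cd4, Itgam, Cd8a, Cd8b1, Gzmk, Eomes, Blk, Fcer2a and the genes under the floor were added after their values were seen. So were Cd180, Cnpy3, Lbp, Hsp90b1, Unc93b1, Irak1, Sigirr, Tnf, Cxcl10, Zap70, Thy1, Trat1, Bst2 and Klrd1. The members and lists were chosen with earlier results of these data known. The scripts were tested on simulated data with changes placed on bright probe sets only, so recovery of differences in dim signals was not tested. Alternatives were 3 scalings, 4 treatments of dim signals, a minimum signal at percentile 75 and 3 choices of probe sets.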

Additional observations from a re-analysis of the deposited data

How the results depend on the processing

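The count of member probe sets at least 2-fold higher in DBA/1 (1 as reported) was 3 without a floor and 4 with the floor at percentile 25, which also let in probe sets under the array median, and 0 with the floor at percentile 60, on the log2(signal + 32) scale, or with the higher signal required to reach percentile 75. It was 1 in the other alternatives. The count at least 2-fold higher in C57BL/6, which is Tlr1, was 1 in every alternative run. The median log2 ratio of 0.27 was -0.84 with the signal minimum, which leaves only Tlr1 and Myd88, and lay between 0.16 and 0.41 otherwise. For single member probe sets, 45 values moved by less than the error of a probe set and 7 by more. Those that lost their ratio with the floor at percentile 60 are not counted. For list medians the numbers were 80 and 4. Leaving out suffixes for cross-hybridisation removed none of the 8 usable probe sets. No replicate could be left out with 1 array per strain, and no paired analysis was possible because each strain has 1 sample. Signals near the array median limit Tlr2, Tlr6, Tlr7, Cd14 and Traf6, and signals under it leave Tlr4 and Ly96 without a measured difference.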
